A study of Caenorhabditis elegans with 12 samples.

Results

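The furrow collagens of Caenorhabditis elegans are the products of 6 genes, dpy-2, dpy-3, dpy-7, dpy-8, dpy-9 and dpy-10. They were taken by gene name from a table of read counts with 27928 rows, and all 6 were present and passed the filter on low counts, among 13460 tested genes. They are defined by their names, not by a level or a fold change. Vitamin D did not move any of them past the test, and the feature that stood out was their spread: the 6 genes went up and down together from pool to pool, by up to 56.5-fold among the vehicle pools.

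RNA-seq was done on pools of whole worms of the wild-type strain N2. One group of 6 pools was kept on vitamin D and another of 6 on the vehicle alone, dimethyl sulfoxide (DMSO), and no pool of either group carried a mutation or transgene. Treatment lasted 44 h, with worms grown at 20 °C. The labels differ on the dose (100 µM in one place, 100 mM in another), on the number of worms in a pool (50 or 40), and on the start (larvae at L4, or worms 1 day old).

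The nematode cuticle is a collagen exoskeleton that the hypodermis (epidermis) makes anew before each molt. The furrow collagens form the circumferential grooves between the annuli, and worms that lose any one of them are short and fat (dumpy) and lack these grooves. Loss of the furrows is also known to switch on osmotic, detoxification and antimicrobial genes in the epidermis, the detoxification genes through the transcription factor SKN-1. Genes for cuticle collagens are transcribed in pulses in the larva, each at its own time in the molting cycle, and the furrow collagens belong to an early pulse.

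Total counts ran from 31383203 to 38720736 per vitamin D library and from 30203731 to 35230983 per vehicle library. The highest and the lowest libraries on the furrow collagens were all in the vehicle group. Vehicle libraries 2 and 3 lay above the other 10 libraries and vehicle library 4 lay below the other 11, so results are also given without them. Vehicle libraries 5 and 6 also lay below every vitamin D library. Among the 1000 genes with the widest spread, leaving out the col genes and every gene of the lists used here, one principal component held 71.9% of the variance. Its score was -34.7 for vehicle library 2, -41.1 for vehicle library 3 and 40.3 for vehicle library 4. Vehicle libraries 1, 5 and 6 scored 20.1, 30.6 and 29.7. The vitamin D libraries lay between -27.2 and 13.1, so every vehicle library was outside their range. The same libraries were thus at the ends of the furrow collagen levels and of this component. All 2800 rows that the annotation places on chromosome III were at 0 in all 12 libraries, including gsr-1, the glutathione reductase gene. A listed gene at 0 on that chromosome is therefore not a measurement, and no furrow collagen lies there. All 24 rows of the mitochondrial genome were at 0 too. Whether a 0 on another chromosome reflects absent transcripts or the way reads were counted was not tested.

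In the WBcel235 annotation the 6 genes are spread over 3 chromosomes. The gene dpy-2 (T14B4.6) lies on chromosome II at 6714292 to 6715971 on the plus strand, and dpy-10 (T14B4.7) on chromosome II at 6710149 to 6712227 on the minus strand. These 2 genes stand head to head, with 2064 bases between their starts and no other gene of the table wholly within that gap. On chromosome X are dpy-3 (EGAP7.1) at 2144605 to 2145647, dpy-7 (F46C8.6) at 7536467 to 7537792 and dpy-8 (C31H2.2) at 5148804 to 5150476, all on the minus strand. The gene dpy-9 (T21D12.2) lies on chromosome IV at 257403 to 259204, also on the minus strand. The annotation puts 780 exon bases of dpy-10 in common with T14B4.19 on the same strand, and 109 exon bases of dpy-8 in common with C31H2.14 on the opposite strand. Neither overlapping gene is a row of the count table, so reads from them could be counted under dpy-10 and dpy-8. The sources used here do not give the build or the strand setting behind the counts.

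The levels below are CPM, counts scaled to a common library total, after scaling by TMM factors. The gene dpy-2 had a lowest, median and highest level of 162, 208 and 476 CPM in the vitamin D libraries, against 13.3, 128 and 593 CPM in the vehicle libraries. Its neighbour dpy-10 had 178, 222 and 556 CPM in the vitamin D libraries, against 11.2, 136 and 633 CPM in the vehicle libraries. The vehicle values enclosed the vitamin D values on both sides, and the groups overlapped. For dpy-3 the lowest, median and highest levels were 138, 158 and 360 CPM with vitamin D, against 10.8, 97.6 and 464 CPM with vehicle. For dpy-7 they were 164, 199 and 441 CPM with vitamin D, against 14.6, 121 and 562 CPM with vehicle. All 6 vitamin D libraries were above the vehicle median for both genes, yet the highest vehicle library was above every vitamin D library. The gene dpy-8 had 233, 277 and 626 CPM in the vitamin D libraries, against 18.6, 163 and 784 CPM in the vehicle libraries. The gene dpy-9 had 140, 182 and 423 CPM in the vitamin D libraries, against 12.9, 115 and 520 CPM in the vehicle libraries. The same picture held for both: a narrow vitamin D group inside a wide vehicle group.

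**Figure D1:**
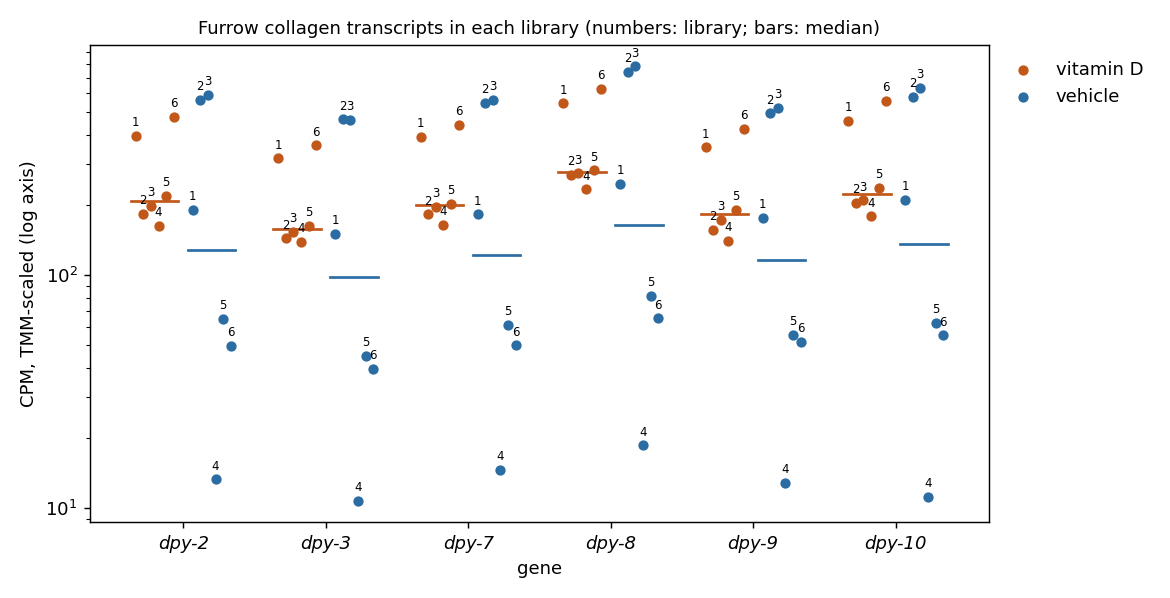
Level of each furrow collagen gene in each of the 12 libraries, in CPM scaled by TMM factors on a log axis, with vitamin D libraries to the left of vehicle libraries in each panel. In every panel vehicle libraries 2 and 3 are the highest points and vehicle library 4 the lowest, and the 6 vitamin D libraries lie between them.

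The order of the libraries was nearly the same for all 6 genes. Within the vitamin D group library 6 was highest, library 1 next and library 4 lowest for every gene, and the highest was 2.6 to 3.1 times the lowest. Within the vehicle group library 4 was lowest and libraries 6, 5 and 1 followed in that order for every gene. Vehicle library 3 was the highest for 5 genes and vehicle library 2 for dpy-3. The highest vehicle library was 38.6 to 56.5 times the lowest, with dpy-10 at the upper end. Summed over the 6 genes, the levels were 1016 to 2882 CPM in the vitamin D libraries and 81.3 to 3554 CPM in the vehicle libraries. Vehicle library 1, at 1153 CPM, fell among vitamin D libraries 2 to 5, at 1016 to 1290 CPM, whereas vehicle libraries 5 and 6 had 370 and 311 CPM. The smallest count behind any of these values was 346 reads, for dpy-3 in vehicle library 4, where counting error is about 5.38%. In RNA from whole worms, fewer cells of a type and less RNA per cell cannot be told apart.

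The SD of the log2 level was 0.60 to 0.68 over the vitamin D libraries and 2.06 to 2.22 over the vehicle libraries, depending on the gene. The difference in spread between the groups was not tested. Over all 12 libraries the SD of the log2 level of the 6 genes was 1.54 to 1.68, ranks 49 to 83 among the 12012 tested genes that averaged 1 CPM or more, whose median SD was 0.23.

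The comparison of vitamin D with vehicle asks whether the treatment changed the furrow collagens. In edgeR's quasi-likelihood test over all 13460 genes, 0 of the 6 passed the threshold of an adjusted p under 0.05, where 3.66% of all tested genes did, 1.75% higher and 1.9% lower with vitamin D. None of the 6 had an unadjusted p under 0.05, where 16.7% of all tested genes did, and DESeq2 and limma-voom also called 0 of the 6, where they called 7.72% and 3.46% of the genes they tested. None of the 6 had groups that did not overlap, a feature shown by 3.9% of tested genes. These p-values rest on the variation from pool to pool, and the series text describes the pools as independent.

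The mean level of dpy-10 was 307 ± 159 CPM with vitamin D and 259 ± 278 CPM with vehicle (SD, n = 6 each), a log2 fold change of 0.25 with a standard error of 0.78 and an edgeR adjusted p of 0.904. The mean of dpy-8 was 371 ± 169 CPM with vitamin D and 323 ± 350 CPM with vehicle (SD, n = 6 each), a log2 fold change of 0.20 with an edgeR adjusted p of 0.918. For dpy-7 the means were 263 ± 121 CPM with vitamin D and 236 ± 253 CPM with vehicle (SD, n = 6 each), and the log2 fold change was 0.15. In each case the SD of the vehicle group exceeded its mean. For dpy-2 the means were 272 ± 131 CPM with vitamin D and 246 ± 264 CPM with vehicle (SD, n = 6 each), and the log2 fold change was also 0.15. For dpy-9 the means were 239 ± 118 CPM with vitamin D and 218 ± 230 CPM with vehicle (SD, n = 6 each), a log2 fold change of 0.13. The smallest fold change was that of dpy-3, at 212 ± 98.7 CPM with vitamin D and 195 ± 213 CPM with vehicle (SD, n = 6 each), a log2 fold change of 0.12. Over the 6 genes the edgeR adjusted p ran from 0.904 to 0.954. The 95% confidence intervals were wide, from -1.54 to 1.77 for dpy-3 and from -1.45 to 1.94 for dpy-10 on the log2 scale. They leave room for a change of more than 2-fold in either direction. The median log2 fold change of the 6 genes was 0.15, beside -0.003 over all tested genes.

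The size of the difference depended on how the libraries were averaged. The mean of the log2 levels was 0.98 to 1.18 higher in the vitamin D libraries than in the vehicle libraries, and limma-voom, which works on that scale, gave log2 fold changes of 1.00 to 1.21 with adjusted p of 0.538 to 0.593. The edgeR values, which compare mean levels, were 0.12 to 0.25. The vehicle mean is set largely by libraries 2 and 3. Without them it was 84.8 ± 86.8 CPM for dpy-10 and 102 ± 98.7 CPM for dpy-8 (SD, n = 4). The log2 fold changes were then 1.70 to 1.86, or 3.26 to 3.64 times higher with vitamin D, with edgeR adjusted p of 0.0613 to 0.0846 (unadjusted 0.019 to 0.0302). Still 0 of the 6 passed, where 28.6% of all tested genes did. These 2 libraries had the highest furrow collagen levels, so leaving them out raises the difference by construction. Without vehicle library 4 as well, the log2 fold changes were 1.35 to 1.51, with edgeR adjusted p of 0.0863 to 0.124, and 0 of the 6 passed, where 18% of all tested genes did.

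Single libraries also turned the sign. Without vehicle library 4 the log2 fold changes of the 6 genes were -0.14 to -0.01, and without vitamin D library 6 they were -0.11 to -0.01. Without vehicle library 5 or 6, the sign turned for all but dpy-10, and without vitamin D library 1 for dpy-3 and dpy-9. The sign of the difference between the means thus depended on single libraries in both groups.

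**Figure D2:**
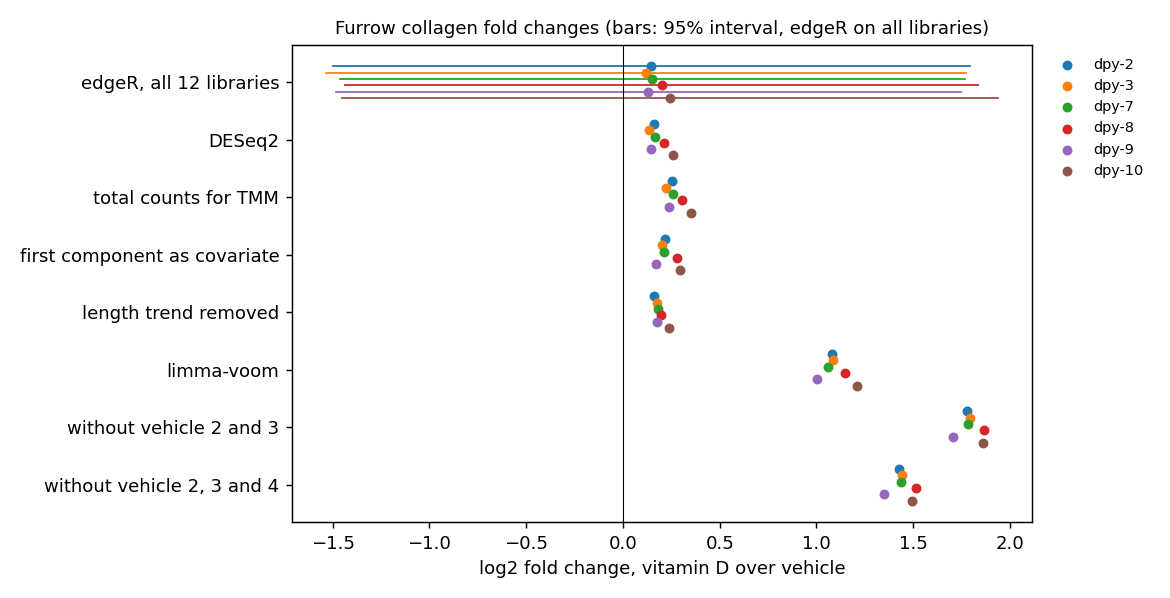
Log2 fold change (vitamin D over vehicle) of each furrow collagen gene in the fit of all 12 libraries, with its 95% confidence interval, and under other settings. The intervals of the fit of all 12 libraries span 0 for all 6 genes, and the values without vehicle libraries 2 and 3 lie between 1.70 and 1.86.

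Between genes, levels were compared per kilobase of exon. In that measure the mean levels of the 6 genes lay close together. The highest was dpy-8, with 245 ± 112 CPM per kb with vitamin D and 213 ± 231 CPM per kb with vehicle (SD, n = 6 each). Next came dpy-7, with 229 ± 105 CPM per kb with vitamin D and 206 ± 221 CPM per kb with vehicle, and dpy-9, with 228 ± 113 CPM per kb with vitamin D and 208 ± 220 CPM per kb with vehicle. The genes dpy-3 and dpy-2 followed, at 221 ± 103 and 205 ± 98.7 CPM per kb with vitamin D, and at 203 ± 221 and 185 ± 199 CPM per kb with vehicle. The lowest was dpy-10, with 193 ± 99.8 CPM per kb with vitamin D and 163 ± 175 CPM per kb with vehicle. No neighbours in this order differed beyond their SD between libraries.

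Within a library the order was steadier than the SDs imply. The level per kb of dpy-10 was the lowest of the 6 in 12 of 12 libraries, that of dpy-2 was next to lowest in 11, and that of dpy-8 was the highest in 9. This order depends on the length used. Per kilobase of coding sequence, dpy-10 was the highest of the 6 with vitamin D, at 286 ± 149 CPM per coding kb, and second with vehicle, at 242 ± 260 CPM per coding kb (SD, n = 6 each), next to dpy-7 at 274 ± 126 CPM per coding kb with vitamin D and 247 ± 265 CPM per coding kb with vehicle. The annotated exons of dpy-10 total 1593 bases, 1071 of them coding with the stop codon, and those of dpy-7 total 1147 bases, 957 of them coding.

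The share of each gene in the summed level per kb of all 6 hardly moved, although the sum itself differed 43.2-fold between vehicle libraries 3 and 4. The share of dpy-8 was 18.1% to 19.7% in the vitamin D libraries and 17.3% to 18.8% in the vehicle libraries. The share of dpy-2 was 15.2% to 16.1% in the vitamin D libraries and 15.1% to 16.6% in the vehicle libraries. The genes were thus present in nearly fixed proportions in all libraries. The shares of dpy-3 were 16.4% to 17.8% with vitamin D and 15.9% to 17.8% with vehicle, and those of dpy-7 were 16.8% to 17.9% with vitamin D and 17.2% to 19.4% with vehicle. Those of dpy-9 were 16.5% to 17.7% with vitamin D and 17.3% to 19.8% with vehicle.

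The widest range was that of dpy-10, whose share was 13.7% to 15.3% in the vitamin D libraries and 10.7% to 14.4% in the vehicle libraries. Its lowest share was in vehicle library 4, where the whole set was lowest. In that library dpy-7 had its highest share, 19.4%, outside the 16.8% to 18.1% of the other 11 libraries. There dpy-10 took 359 of the 2607 reads of the 6 genes, or 13.8% (Clopper-Pearson 95% interval 12.5% to 15.2%). The next lowest share of reads was 16.9% (16.2% to 17.6%) in vehicle library 5, and the highest was 19.3% (19.1% to 19.5%) in vitamin D library 6. These intervals cover counting error only, and the share in vehicle library 4 lay outside those of the other 11 libraries. The ratio of dpy-10 to its head-to-head neighbour dpy-2, per kb of exon, was 0.879 to 0.971 in the vitamin D libraries and 0.700 to 0.920 in the vehicle libraries. The lowest ratio was again that of vehicle library 4, and the next vehicle value was 0.802.

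**Figure D3:**
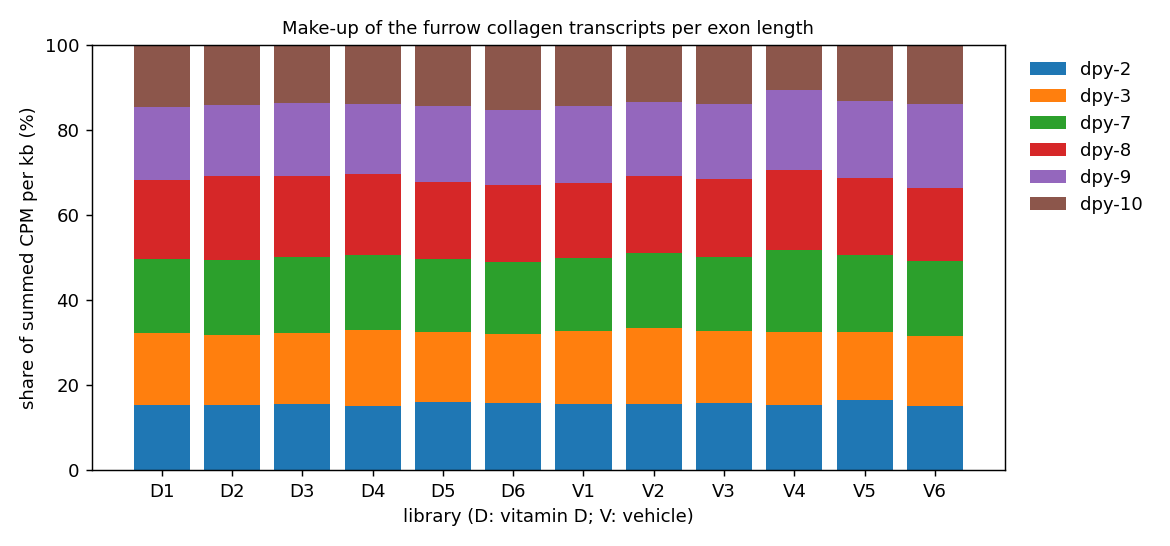
Share of each furrow collagen gene in the summed CPM per kb of exon of all 6 genes, in percent, by library, with vitamin D libraries to the left of vehicle libraries. The shares stay within a few percentage points across libraries, and that of dpy-10 is lowest in vehicle library 4.

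How closely the genes followed each other was measured as the root mean square (RMS) difference between the log2 profiles of 2 genes over the 12 libraries, each centred on its own mean. It is a description, and the 12 points of a pair share their library and its depth. Over the 15 pairs of furrow collagens it ran from 0.06 (dpy-3 and dpy-7) to 0.16 (dpy-7 and dpy-10), with a median of 0.08. The 5 pairs with dpy-10 were the 5 farthest, at 0.12 to 0.16. Within the vitamin D libraries alone the pairs ran from 0.02 to 0.09, and within the vehicle libraries alone from 0.04 to 0.19. The likeness was thus present inside each group. Within the vitamin D libraries dpy-10 did not stand apart in every pair. It was at 0.04 from dpy-9 and 0.05 from dpy-2, below the median pair of 0.06, and at 0.08 to 0.09 from dpy-3, dpy-7 and dpy-8. Over all 12 libraries the neighbours dpy-2 and dpy-10, at 0.12, were the closest pair with dpy-10 but farther apart than the 10 pairs without it.

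The mean profile of the 6 genes served to rank the same 12012 genes. The median RMS difference of genes outside the set to that profile was 1.53, close to the 1.52 of a gene with no variation at all. Only 16 such genes lay within 0.25. The 8 nearest were lpr-4 (0.07), lpr-6 (0.10), lpr-3 (0.13), noah-1 (0.13), noah-2 (0.13), lpr-5 (0.15), M03B6.3 (0.16) and col-128 (0.17), and the next gene was at 0.18. The lpr genes encode lipocalin-related proteins of the apical extracellular matrix, noah-1 and noah-2 encode zona pellucida domain proteins of the same matrix, and col-128 encodes another cuticle collagen. Taken one by one, dpy-2, dpy-3, dpy-8 and dpy-10 were nearest to lpr-4, dpy-7 to noah-2 and dpy-9 to lpr-6. Of the set itself, 5 of the 6 furrow collagens ranked 1 to 5 in nearness to their own mean profile, and dpy-10 ranked 8. Each of the 6 is part of that mean, so these ranks are favoured by construction.

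The 8 genes were picked for this likeness over the same libraries, so their values are a description. The gene lpr-4 had a lowest, median and highest level of 260.0, 317 and 731 CPM in the vitamin D libraries, against 17.8, 175 and 858 CPM in the vehicle libraries. The gene noah-1 had 490.1, 596 and 1404 CPM in the vitamin D libraries, against 41.0, 314 and 1457 CPM in the vehicle libraries. For both, vitamin D library 6 was the highest of its group and vehicle libraries 3 and 4 were the ends of theirs. Vehicle library 3 was 48.2 times vehicle library 4 for lpr-4, 35.6 times for noah-1, 31.9 times for noah-2, 34.4 times for M03B6.3 and 53.9 times for col-128. The log2 fold changes of the 8 genes with vitamin D were 0.22 to 0.47, and their edgeR adjusted p ran from 0.795 to 0.912. The genes lpr-3, lpr-6, lpr-5 and lpr-4 form a row on chromosome X, from 11057401 to 11066811. Other genes of that name lay farther off, with lpr-1 at 0.59 (rank 71 among genes outside the set), lpr-2 at 1.37 and lpr-7 at 2.04.

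**Figure D4:**
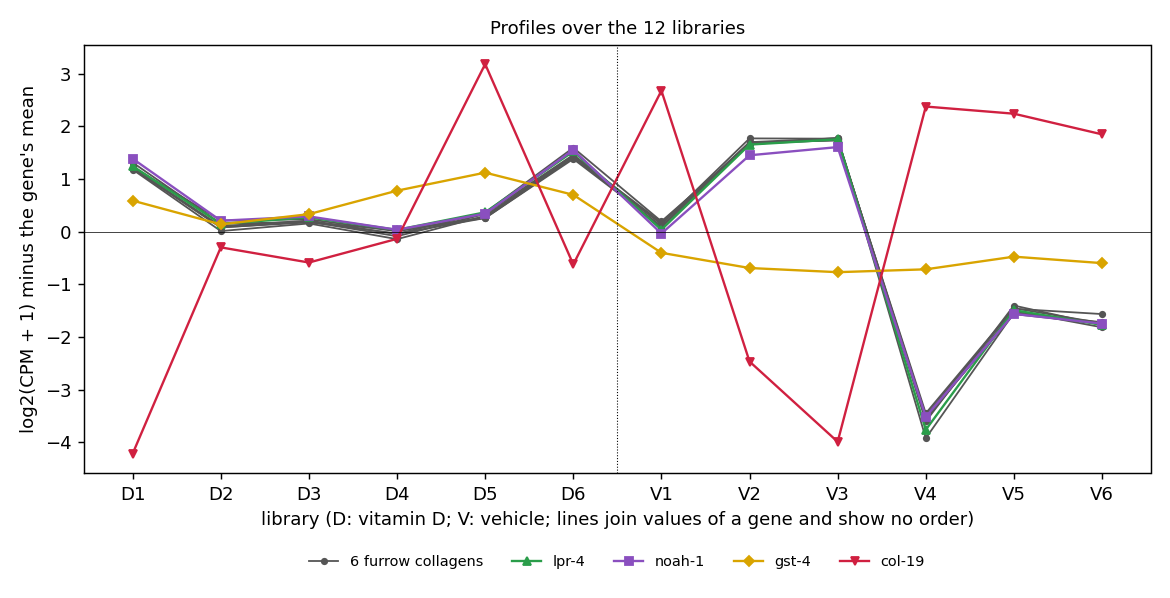
Log2 level in each library, centred on each gene's mean over the 12 libraries, with vitamin D libraries to the left of vehicle libraries. The genes are the 6 furrow collagens, lpr-4, noah-1, gst-4 and col-19. The lines of the furrow collagens, lpr-4 and noah-1 run together, from a high in vehicle libraries 2 and 3 to a low in vehicle library 4. The line of gst-4 does not follow them, and among the vehicle libraries col-19 is lowest in vehicle library 3.

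Other collagens of the cuticle, chosen as a list of body shape genes with the adult collagen col-19, mostly varied less between the same libraries. Of 15 listed, 10 were tested and the other 5 (bli-1, bli-2, dpy-4, dpy-17 and lon-3) were listed at 0 counts in all libraries, among them dpy-17 on chromosome III. From the lowest to the highest of the 12 libraries, 9 of the 10 differed by 2.09-fold to 2.86-fold, against 38.6-fold to 56.5-fold for the furrow collagens. With vitamin D, 0 rose and 0 fell in edgeR's test, where 3.66% of all tested genes passed. An unadjusted p under 0.05 was found for 0, where 16.7% of all tested genes had one. DESeq2 and limma-voom called 0, where they called 7.72% and 3.46% of the genes they tested. The median log2 fold change of the 10 was -0.07. In the fit without vehicle libraries 2 and 3, 1 rose and 0 fell, where 28.6% of all tested genes passed. Their summed level was 8459 to 15815 CPM in the vitamin D libraries and 11396 to 17196 CPM in the vehicle libraries. Vehicle library 3 was 1.1 times vehicle library 4 in this sum, against 43.7 times for the summed CPM of the furrow collagens. The gene rol-6, a collagen whose mutants roll, had a lowest, median and highest level of 445, 795 and 919 CPM in the vitamin D libraries, against 511, 576 and 1033 CPM in the vehicle libraries. The collagen sqt-3, needed for normal cuticle shape, had 1201, 2186 and 2419 CPM in the vitamin D libraries, against 1366, 1554 and 3144 CPM in the vehicle libraries. For both genes vehicle library 2 was the highest of its group and vehicle library 5 the lowest, so the order of libraries was not that of the furrow collagens. The gene dpy-13, another dumpy collagen, had 1387, 2276 and 2984 CPM in the vitamin D libraries, against 2233, 2411 and 2956 CPM in the vehicle libraries, a log2 fold change of -0.19 with an edgeR adjusted p of 0.673. The tenth, col-19, differed by 246-fold over the 12 libraries, more than the furrow collagens, and ran the other way, with 0.00885 times as much in vehicle library 3 as in vehicle library 4. Its lowest, median and highest levels were 2.13, 41.9 and 525 CPM in the vitamin D libraries, against 2.65, 240.1 and 370 CPM in the vehicle libraries.

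Enzymes that process collagen varied over a smaller range than the furrow collagens. These include prolyl hydroxylases, protein disulfide isomerases and the proteases and oxidases that mature and crosslink the chains. Of 17 listed, 13 were tested and 4 were listed at 0. With vitamin D, 0 rose and 0 fell in edgeR's test, where 3.66% of all tested genes passed. An unadjusted p under 0.05 was found for 0, where 16.7% of all tested genes had one. DESeq2 and limma-voom called 0, where they called 7.72% and 3.46% of the genes they tested. Without vehicle libraries 2 and 3, 5 rose and 1 fell, where 28.6% of all tested genes passed. Their summed level in vehicle library 3 was 2.34 times that in vehicle library 4. The highest fold among them was that of fkb-5, a peptidyl-prolyl isomerase, at 5.99 times, and it was picked out here after its value was seen. None came near the 38.6 to 56.5 times of the furrow collagens.

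The list of transcription factors and signalling genes that regulate collagen genes or body size had 16 tested members of 21. With vitamin D, 0 rose and 0 fell in edgeR's test, where 3.66% of all tested genes passed. DESeq2 and limma-voom called 0, where they called 7.72% and 3.46% of the genes they tested. In edgeR's test 3 of the 16 had an unadjusted p under 0.05, near the 16.7% of all tested genes that did. The 3 were myrf-2, sma-9 and sma-6, with log2 fold changes of 0.29, 0.27 and 0.27. Without vehicle libraries 2 and 3, 9 of the 16 rose and 0 fell, where 28.6% of all tested genes passed. One regulator differed by 29.4-fold over the 12 libraries. That was peb-1, a DNA-binding protein needed for molting, with 19.3, 23.8 and 56.5 CPM as its lowest, median and highest level in the vitamin D libraries, against 2.03, 12.7 and 59.5 CPM in the vehicle libraries. It was picked out after its values were seen, as were mlt-11, nhr-23, elt-1 and grh-1. The molting gene mlt-11, a protease inhibitor, was in vehicle library 3 at 28.5 times its level in vehicle library 4. The same ratio was 0.988 for nhr-23, a nuclear receptor that drives the molting cycle. In the other tested regulators except peb-1 it ran from 0.581 (elt-1) to 4.55 (grh-1). Of the molting list 15 of 16 members were tested. With vitamin D 0 of the 15 rose and 0 fell in edgeR's test, where 3.66% of all tested genes passed. An unadjusted p under 0.05 was found for 1, where 16.7% of all tested genes had one. DESeq2 and limma-voom called 0, where they called 7.72% and 3.46% of the genes they tested. Without vehicle libraries 2 and 3, 9 of the 15 rose and 2 fell, where 28.6% of all tested genes passed.

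Markers of other tissues were set beside the furrow collagens, and their part in the pattern was not tested. The summed level of the hypodermis markers, of which 11 were tested, was 2225 to 3015 CPM in the vitamin D libraries and 1608 to 3214 CPM in the vehicle libraries, and vehicle library 3 was 1.97 times vehicle library 4. None of the 11 passed edgeR's test and 2 had an unadjusted p under 0.05, where 3.66% and 16.7% of all tested genes did. Of the 11, 6 rose without vehicle libraries 2 and 3, where 28.6% of all tested genes passed. The hypodermal factor lin-26 was detected in every library, at 1.2 to 2.02 CPM with vitamin D and 1.26 to 1.86 CPM with vehicle. Within this list wrt-2 and wrt-10, hedgehog-related genes of the warthog family, ranged far more widely than the rest, with vehicle library 3 at 32.5 and 42.2 times vehicle library 4. Both were singled out with their values in view. The other 9 were at 1.17 to 2.12 times, against 38.6 to 56.5 times for the highest over the lowest vehicle library of the furrow collagens. The summed intestine markers were 5584 to 8170 CPM with vitamin D and 5313 to 7660 CPM with vehicle, and the summed muscle markers were 7148 to 7968 CPM with vitamin D and 6374 to 7558 CPM with vehicle. Among the vehicle libraries, germ line markers ran opposite to the furrow collagens. The 14 tested sperm genes summed to 586 to 1011 CPM in the vitamin D libraries and 330 to 1540 CPM in the vehicle libraries, with the least in vehicle libraries 3 and 2 (330 and 373 CPM) and the most in vehicle library 4. None of the 14 passed edgeR's test and 1 had an unadjusted p under 0.05, where 3.66% and 16.7% of all tested genes did. Without vehicle libraries 2 and 3, 11 fell, where 28.6% of all tested genes passed. These 2 libraries had the lowest sperm sums, so leaving them out lowers the fold changes of sperm genes by construction. The 9 tested oocyte and eggshell genes summed to 461 to 1988 CPM in the vitamin D libraries and 410.3 to 1402 CPM in the vehicle libraries, again least in vehicle library 3 and most in vehicle library 4 within that group. The sperm marker msp-31 and the oocyte markers egg-1, cpg-1 and cpg-2 were listed at 0, the last 3 on chromosome III. Of 14 embryonic genes 6 (tbx-37, tbx-38, pal-1, med-2, nob-1 and ceh-51) were listed at 0 and 4 were tested, and the sum was 61.6 to 92.9 CPM with vitamin D and 69.8 to 82.4 CPM with vehicle. That embryonic sum was 0.981 times as high in vehicle library 3 as in vehicle library 4.

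The responses known to follow loss of the furrows were read from 4 further lists, of which the detoxification list had calls upward, the osmotic list 1 call downward and the antimicrobial list none. Genes of glutathione conjugation and other detoxification under SKN-1 had 11 tested members of 14. Of these 7 rose and 0 fell, where 1.75% of all tested genes rose, and the median log2 fold change was 1.09. This list, like the others, was chosen with earlier results of these data known, so its share of calls is a description and not a test. DESeq2 called 8 and limma-voom 6, where they called 7.72% and 3.46% of the genes they tested. Without vehicle libraries 2 and 3, 9 rose and 0 fell, where 28.6% of all tested genes passed. The gene gst-4, a glutathione S-transferase and the usual reporter of SKN-1 activity, had a lowest, median and highest level of 52.4, 74.9 and 105 CPM in the vitamin D libraries, against 27.5, 30.1 and 35.7 CPM in the vehicle libraries. Every vitamin D library was above every vehicle library, the log2 fold change was 1.27 with a standard error of 0.15, and the edgeR adjusted p was 0.000521. The level of gst-4 in vehicle library 3 was 0.962 times that in vehicle library 4. It thus did not follow the furrow collagens among the vehicle pools. In the other tested members this ratio ran from 0.636 (gst-38) to 6.03 (sdz-8, picked out after its value was seen). It was 1.94 for gst-5 and 1.25 for gcs-1. The gst-4 relatives gst-7, gst-6 and gst-5 rose by 1.54, 1.09 and 1.56 on the log2 scale, and dhs-8, a short-chain dehydrogenase, by 2.75. The other 2, gst-38 and ugt-11, rose by 0.95 and 1.42, and these calls did not hold under every setting, though the fold changes stayed close, at 0.93 to 0.95 for gst-38 and 1.2 to 1.46 for ugt-11 where the call was lost. The call of gst-38 was lost without vehicle library 1 or vitamin D library 1, 4 or 6, at an edgeR adjusted p of up to 0.0574. The call of ugt-11 was lost without vehicle library 2, 4 or 6 or vitamin D library 1, 4, 5 or 6, at an edgeR adjusted p of up to 0.0802. It was also lost without vehicle libraries 2, 3 and 4 (edgeR adjusted p of 0.0622) and in limma-voom (0.0568). How reads shared by near-identical copies of such gene families, collagens included, were counted is not stated in the sources used here. The gene gcs-1, which encodes the enzyme of the first step of glutathione synthesis and is another standard SKN-1 readout, had 149, 164 and 181 CPM in the vitamin D libraries, against 123, 125 and 159 CPM in the vehicle libraries, with an edgeR adjusted p of 0.0707.

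The osmotic list had 6 tested members of 9, of which 0 rose and 1 fell, where 1.9% of all tested genes fell. DESeq2 called 3 and limma-voom 2, where they called 7.72% and 3.46% of the genes they tested. Without vehicle libraries 2 and 3, 1 rose and 3 fell, where 28.6% of all tested genes passed. The one call was gpdh-1, a glycerol-3-phosphate dehydrogenase that makes glycerol and the best known osmotic readout of furrow loss. Its lowest, median and highest levels were 6.95, 13.1 and 29.2 CPM in the vitamin D libraries, against 29.01, 30.9 and 42.9 CPM in the vehicle libraries. The log2 fold change was -1.25 with a standard error of 0.30 and an edgeR adjusted p of 0.0435. Only vitamin D library 5 reached the vehicle range. The call was lost without any one of the other 11 libraries, with adjusted p of 0.0505 (without vehicle library 3) to 0.101 (without vehicle library 1), and kept without vitamin D library 5. The inositol transporter genes hmit-1.1 and hmit-1.2 had log2 fold changes of -0.96 and -1.03, with edgeR adjusted p of 0.0663 and 0.0797. One member of this list differed by 39.7-fold among the vehicle libraries. That was osr-1, a regulator of osmotic resistance, picked out after its values were seen, with 61.2, 97.3 and 117 CPM in the vitamin D libraries, against 5.12, 47.3 and 203 CPM in the vehicle libraries, where library 3 was 34.5 times library 4.

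The antimicrobial peptide list had 14 tested members of 23. Of these 0 rose and 0 fell in edgeR's test, where 3.66% of all tested genes passed. An unadjusted p under 0.05 was found for 6, where 16.7% of all tested genes had one. DESeq2 called 3 and limma-voom 0, where they called 7.72% and 3.46% of the genes they tested. Without vehicle libraries 2 and 3, 0 rose and 5 fell, where 28.6% of all tested genes passed. The median log2 fold change was -0.56, and 12 of the 14 values were negative. The gene nlp-29, the standard reporter of epidermal damage, had 3.87, 4.82 and 8.33 CPM in the vitamin D libraries, against 6.19, 8.30 and 15.1 CPM in the vehicle libraries. Its groups overlapped, and the log2 fold change was -0.77 with an edgeR adjusted p of 0.132. The 3 with the smallest p were nlp-34, nlp-30 and nlp-33, with log2 fold changes of -1.96, -0.66 and -0.88 and edgeR adjusted p of 0.0582, 0.0663 and 0.0823. The caenacin gene cnc-2 had a log2 fold change of 0.04.

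Of the damage signalling genes 14 of 16 were tested, and 1 rose and 0 fell, where 1.75% of all tested genes rose. DESeq2 called 2 and limma-voom 1, where they called 7.72% and 3.46% of the genes they tested. Without vehicle libraries 2 and 3, 5 rose and 0 fell, where 28.6% of all tested genes passed. The one was wdr-23, whose product targets SKN-1 for degradation, with 78.9, 87.1 and 114 CPM in the vitamin D libraries, against 60.7, 64.8 and 66.3 CPM in the vehicle libraries. Its groups did not overlap, and the log2 fold change was 0.51 with a standard error of 0.09 and an edgeR adjusted p of 0.0065. The gene skn-1 itself had 175, 184 and 203 CPM in the vitamin D libraries, against 143, 160 and 183 CPM in the vehicle libraries, a log2 fold change of 0.23 with an edgeR adjusted p of 0.0834. Across the vehicle pools, where the furrow collagens differed by up to 56.5-fold, wdr-23 differed by 1.09-fold and skn-1 by 1.28-fold. The levels of skn-1 in these pools ran in the reverse order of the summed furrow collagens. They were 143 CPM in vehicle library 3 and 183 CPM in vehicle library 4, and this order was not tested.

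**Figure D5:**
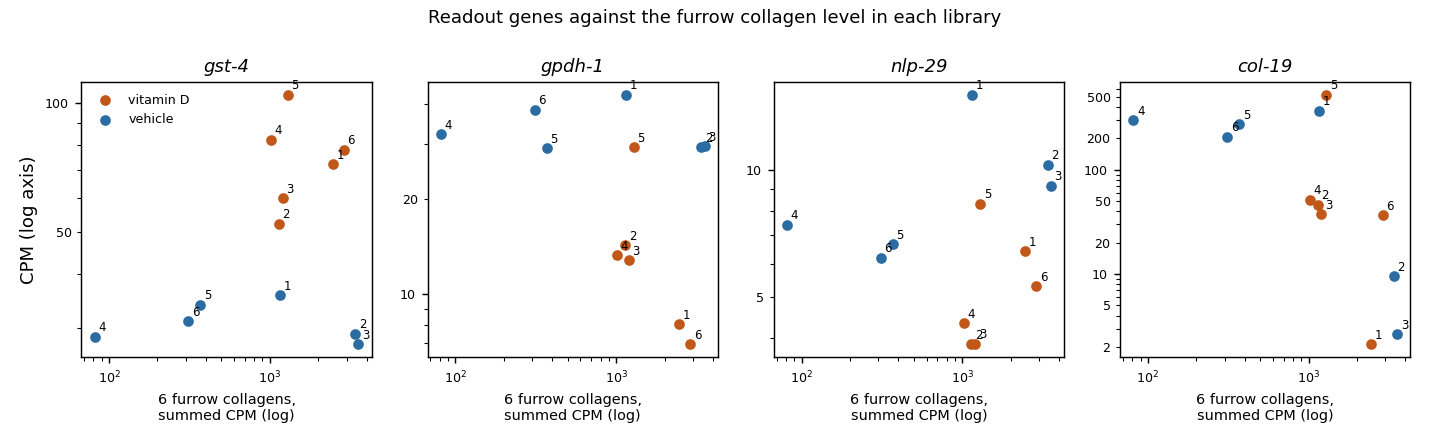
Level of gst-4, gpdh-1, nlp-29 and col-19 in CPM (log axis) against the summed CPM of the 6 furrow collagens (log axis), one point per library, numbered, with vitamin D and vehicle libraries in 2 colours. The 6 vitamin D libraries lie above all vehicle libraries for gst-4, at 52.4 to 105 CPM, while the vehicle libraries stay at 27.5 to 35.7 CPM over the whole range of furrow collagen levels.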

How the data were processed

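RNA from 12 pools of whole worms, 6 on vitamin D and 6 on vehicle, was sequenced as 50-base pairs on an Illumina HiSeq, per the labels' protocols. The authors deposited raw counts for each gene, and the same data as CPM. The deposited CPM differ by at most 2.91e-11 from counts over library totals, so only the counts were used. No aligner, counter, build or strand setting is stated in the sources used here. The submitters' processing notes name edgeR 3.12.1. Sequence names were looked up in Ensembl release 115 (WBcel235): 27187 matched 1 gene, 3 matched several and 738 matched none, the last with 0.518% to 0.653% of a library's counts. No column was left out (0 unused).

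Counts were fitted in edgeR 4.0.16 (R 4.3.3) with TMM factors, filterByExpr (minimum count 10, minimum total 15) and a robust quasi-likelihood test, two-sided, with treatment as the only term and Benjamini-Hochberg adjustment over all 13460 tested genes. Tested genes held 99.928% to 99.967% of the counts, and the common biological coefficient of variation was 0.313. The steps were tested on simulated data with known changes. A positive log2 fold change means higher with vitamin D. Profiles are log2 of TMM-scaled CPM plus 1, and levels per kb use merged exon length. Alternatives were DESeq2 1.42.0, limma-voom 3.58.1, total-count scaling, no filter, removal of a length trend, a stage score (the first principal component described in the report) as covariate, a fit with the replicate number as a block, leaving out each library, and leaving out vehicle libraries 2 and 3. The name stage score is a label only, and whether this component follows developmental stage was not tested. Coding length and the removal of vehicle library 4 with libraries 2 and 3 were added after seeing the data.

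The 6 genes and all lists were chosen with earlier results of these data known. The text names the 6 genes, the 8 genes nearest to their mean profile and the nearest to each, in each pathway list those past the threshold and among those with the 3 smallest p, and 12 preset readouts, except where it says that a gene was picked out after its values were seen.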

Additional observations from a re-analysis of the deposited data

Results flagged for a closer look

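Of 96 groups of 6 libraries checked, over 48 named genes, 3 held one library far from the rest of its group by Dixon's test, and chance alone gives about 1 in 20. All 3 were vitamin D library 5, and none was a furrow collagen. Its level of gpdh-1 was 29.2 CPM, where the other vitamin D libraries had 6.95 to 14.3 CPM. Its level of the adult collagen col-19 was 525 CPM, where the others had 2.13 to 51.8 CPM. Its level of myrf-2, a membrane-bound transcription factor, was 94.1 CPM, where the others had 123 to 128 CPM. For the furrow collagens the same library had a summed level of 1290 CPM, inside its group's range.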

How the results depend on the processing

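None of the 6 furrow collagens was called in any of the 21 alternatives. Their fold changes did not keep one sign: leaving out one library gave -0.11 to 0.62 for dpy-2, -0.14 to 0.57 for dpy-3, -0.10 to 0.61 for dpy-7, -0.054 to 0.68 for dpy-8, -0.12 to 0.59 for dpy-9 and -0.013 to 0.73 for dpy-10. Total-count scaling gave them 0.22 to 0.35. Other signs that turned were those of M03B6.3 (-0.034 to 0.67), col-128 (-0.037 to 0.73), cnc-2 (-0.14 to 0.27) and sqt-3 (-0.075 to 0.19) with one library left out, of bli-3 (-0.051) with the length trend removed, and of sqt-3 (-0.12), rol-6 (-0.026) and col-19 (0.78) with the stage score as covariate. Genes called over the whole table numbered 492, against 1136 by DESeq2, 1583 with the stage score, 257 with the length trend removed, 3924 without vehicle libraries 2 and 3, 2499 without vehicle libraries 2, 3 and 4, and 260 to 625 with one library left out. Members of the pathway lists called numbered 9, against 16, 20, 7, 50, 36 and 6 to 12 in the same order. The causes were not tested. Libraries with the same number did not pair: correlations of their deviations ran from -0.480 to 0.478, and only 2 of 6 numbers correlated best with themselves. A replicate block on these numbers called 136 genes, gave the furrow collagens 1.08 to 1.28 (adjusted p 0.60 to 0.64, edgeR), and lost gpdh-1 (0.138) and ugt-11 (0.113). Removing the length trend lost gpdh-1 (0.0624) and ugt-11 (0.0537), and no filter lost gpdh-1 (0.0562). The furrow collagens had 346 to 25698 reads per gene and library.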
